A study of Drosophila melanogaster with 2 samples.

Results

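Of the 1892 summits of dati-eGFP peaks on the 6 chromosome arms 2L, 2R, 3L, 3R, 4 and X of the Drosophila melanogaster genome (build dm6), 250 lay at divergent promoters. A summit, the point of highest enrichment in a peak, was counted as divergent when a protein-coding transcript on each strand started within 500 bp of it. Another 560 summits had such start sites on 1 strand alone, called one-strand summits here, and 1082 had none within 500 bp. The 250 made up 30.9% (95% interval 27.7 to 34.2) of the 810 promoter summits. The choice used positions and annotation, and no signal value. In 4 of the 250 the 2 start sites were in the opposite order, so that the transcripts ran towards each other and overlapped, and the other 246 had the head-to-head order that the word divergent names.

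The data were chromatin immunoprecipitation followed by sequencing (ChIP-seq) in whole transgenic embryos of strain dati-GFP aged 8 to 24 hours. The labels name an insertion targeting dati and a fusion of its protein with enhanced green fluorescent protein (eGFP). There was 1 group with 2 biological replicates, and the chromatin was sonicated (size range in the labels 200 to 800, no unit) and precipitated through the GFP tag. The promoter that drove the fusion gene is not given in the labels, and embryos without the tag were not analysed here, so enrichment that does not depend on the fusion protein cannot be told apart from binding. The lists hold no read counts, and the depth of the libraries is unknown. The peaks are those of the deposited set called optimal here, thresholded on the irreproducible discovery rate (IDR), which measures how well the ranks of peaks repeat.

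The gene dati encodes a zinc finger protein known from neurons and from female mating behaviour. Divergent promoters are common in the compact Drosophila genome: a pair of genes is transcribed away from a shared stretch of DNA that is usually free of nucleosomes. Many such pairs are housekeeping genes, whose promoters are known for the DNA replication-related element (DRE), bound by the factor Dref, for the CGATA core recognised by the insulator protein BEAF-32, and for motif 1, bound by M1BP.

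The stretches between the facing start sites are shown for 5 of the divergent summits of highest signal. The first 3 are the highest with a gap of 40 to 300 bp, Mnat9 and CG1792 have their summit almost at 1 start site, and fws and Lamtor3 is the pair among the 8 examined that holds a full DRE. Each runs 5′ to 3′ on the plus strand of dm6, from the RefSeq copy of the Release 6 assembly, from the base after the minus-strand gene's start site to the base before the plus-strand gene's. Capitals mark the 21 bases centred on the summit, or the 17 of them that lie inside the stretch for Mnat9 and CG1792. The positions, in the order printed, are chr3R:29736746-29736964, chr3L:5139396-5139618, chr3R:15229409-15229664, chr3R:31616161-31616302 and chr2L:17481030-17481230. The named gene on the left is on the minus strand.
CG7601 and CIA30: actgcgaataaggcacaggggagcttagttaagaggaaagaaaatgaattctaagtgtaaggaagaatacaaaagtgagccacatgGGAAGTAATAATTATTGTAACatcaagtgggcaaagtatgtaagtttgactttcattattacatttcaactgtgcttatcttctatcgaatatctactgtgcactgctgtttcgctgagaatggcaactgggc
Tcs5 and CHMP2B: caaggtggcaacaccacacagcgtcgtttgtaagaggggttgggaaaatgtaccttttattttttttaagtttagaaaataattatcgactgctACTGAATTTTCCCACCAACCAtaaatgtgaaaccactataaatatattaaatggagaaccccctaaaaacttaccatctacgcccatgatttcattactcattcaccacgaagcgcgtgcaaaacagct
Art3 and mRpS10: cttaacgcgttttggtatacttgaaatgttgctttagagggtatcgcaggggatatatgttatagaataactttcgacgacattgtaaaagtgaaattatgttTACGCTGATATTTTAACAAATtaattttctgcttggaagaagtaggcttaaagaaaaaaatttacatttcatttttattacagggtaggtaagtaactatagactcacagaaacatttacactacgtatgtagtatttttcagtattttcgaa
Mnat9 and CG1792: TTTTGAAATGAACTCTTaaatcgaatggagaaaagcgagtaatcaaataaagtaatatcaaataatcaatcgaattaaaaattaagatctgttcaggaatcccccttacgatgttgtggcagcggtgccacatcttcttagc
fws and Lamtor3: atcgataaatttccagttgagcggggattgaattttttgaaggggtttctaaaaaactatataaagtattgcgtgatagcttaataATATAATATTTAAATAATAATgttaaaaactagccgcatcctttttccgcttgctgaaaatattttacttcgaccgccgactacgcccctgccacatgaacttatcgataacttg

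The GC content of these stretches was 37.9% for CG7601 and CIA30, 38.1% for Tcs5 and CHMP2B, 30.1% for Art3 and mRpS10, 34.5% for Mnat9 and CG1792, and 34.3% for fws and Lamtor3. Read on both strands, the stretch of fws and Lamtor3 held 1 DRE (TATCGATA) and 3 matches to CGATA, some within the DRE. The 3 stretches of highest signal held 1 CGATA each and no DRE, and that of Mnat9 and CG1792 held neither.

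The strongest divergent summit lay between CG7601 (FBgn0027583) and CIA30 (FBgn0039689), which encodes an assembly factor of respiratory complex I. Its peak, at 3R 29736743 to 29736943, had a signal of 369 in replicate 1, 342 in replicate 2 and 696 in the pooled data, which are the authors' own values, in units that no source used here states. The summit was 97 bp upstream of CG7601 and 123 bp upstream of CIA30. Tcs5, a tRNA modification gene, and CHMP2B, which encodes a subunit of the membrane-cutting ESCRT-III complex, shared the next summit (3L 5139399 to 5139595). It had a signal of 362 in replicate 1, 287 in replicate 2 and 645 pooled, and lay 105 bp upstream of Tcs5 and 119 bp upstream of CHMP2B. Both summits sat near the middle of a gap of 220 or 224 bp.

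The next pair both involved the mitochondrial ribosome. The peak at 2L 13835364 to 13835550 had signals of 339 and 299 in replicates 1 and 2 and 644 pooled, and its summit was 92 bp upstream of CenG1A, which encodes a GTPase-activating protein, but 400 bp upstream of mRpS23. The peak at 3R 15229444 to 15229621 had 352, 283 and 621 in the same order, and its summit was 114 bp upstream of Art3, an arginine methyltransferase gene, and 143 bp upstream of mRpS10. In all 4 of these, replicate 1 had the higher value.

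In the 20 divergent summits of highest signal the pooled values ran down to 262, with 133 to 369 in replicate 1 and 123 to 342 in replicate 2. All 20 overlapped a peak in each replicate's own thresholded set. Replicate 2 had the higher value in 1 of them, that of Mnat9, an N-acetyltransferase gene, and CG1792 (222 in replicate 1, 224 in replicate 2). The summit lay between the start sites in 12 of the 20, beyond 1 of them in 7, and at an overlapping pair in 1.

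The summits beyond a start site had a recurring layout. Chro, which encodes the chromatin protein Chromator, and Ssl1, which encodes a subunit of the general transcription factor TFIIH, had the highest of this kind, with 263 in replicate 1, 216 in replicate 2 and 480.5 pooled (3L 22878827 to 22878981). Its summit was 101 bp inside the Chro side, downstream of that start site, and 206 bp upstream of Ssl1. At Elp5, an Elongator subunit gene, and CG1275, the gap was 33 bp, and the summit lay 56 bp downstream of Elp5 and 89 bp upstream of CG1275 (213, 204 and 419 in replicate 1, replicate 2 and pooled). CG8320 and Pex11ab, a gene for peroxisome division, also had a gap of 33 bp, with the summit 72 bp past CG8320 and 105 bp upstream of Pex11ab (235, 180.2 and 417). The gap of mRpL23 and CG9004 was 50 bp, with the summit 83 bp past mRpL23 and 133 bp upstream of CG9004 (206, 192 and 401). The gap of CG8360 and CG8372 was 57 bp, with the summit 51 bp past CG8360 and 108 bp upstream of CG8372 (238, 174 and 413). At tank and CG12194 the summit was 124 bp past tank and 472 bp upstream of CG12194 (254, 205 and 460.4). At CG9147 and Fbw5, an F-box gene, it was 1 bp past CG9147 and 135 bp upstream of Fbw5 (216, 125 and 335).

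Other pairs of the 20 with the summit between their start sites were CG3552 and CG3437 (signal 421), CG13390 and CG17294 (380.0), fws, which encodes a subunit of the Golgi COG complex, and Lamtor3 of the lysosomal Ragulator complex (360.4), SLIRP2 and Mkk4, a MAP kinase kinase gene (338), l(2)gd1 and Reps (315), and CG5098 and CG5757 (277). Adck1 and CG4741 had the highest signal of the 4 overlapping pairs, with 133 in replicate 1, 123 in replicate 2 and 262 pooled, and a summit 102 bp upstream of Adck1. The other overlapping pairs were CG31808 and Cyt-c-d, a cytochrome c gene (176), Lkb1, a kinase gene, and CG9588 (59.3), and CG3770 and CG15861 (49.7).

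A start site 75 to 150 bp downstream of the summit was thus common among the strongest, a window chosen after these distances were seen. It was present in 19 of the 20 highest, whose distances led to the window, so this count is no support for it. The 63 divergent summits of highest signal include those 20, and 50 of the 63 had such a start site (79.4%, 67.3 to 88.5). The choice of window could raise that share. In the next 3 groups of 62 or 63 it was present in 39.7%, 54.8% and 33.9%. Over all 250, again with those 20, such a start site was present in 52% (45.6 to 58.3), against 22.3% (18.9 to 26.0) of the one-strand summits, which have fewer start sites to meet the window. The one-strand summits showed 35% in their 140 highest and 22.9%, 15% and 16.4% in the next 3 groups of 140.

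**Figure D1:**
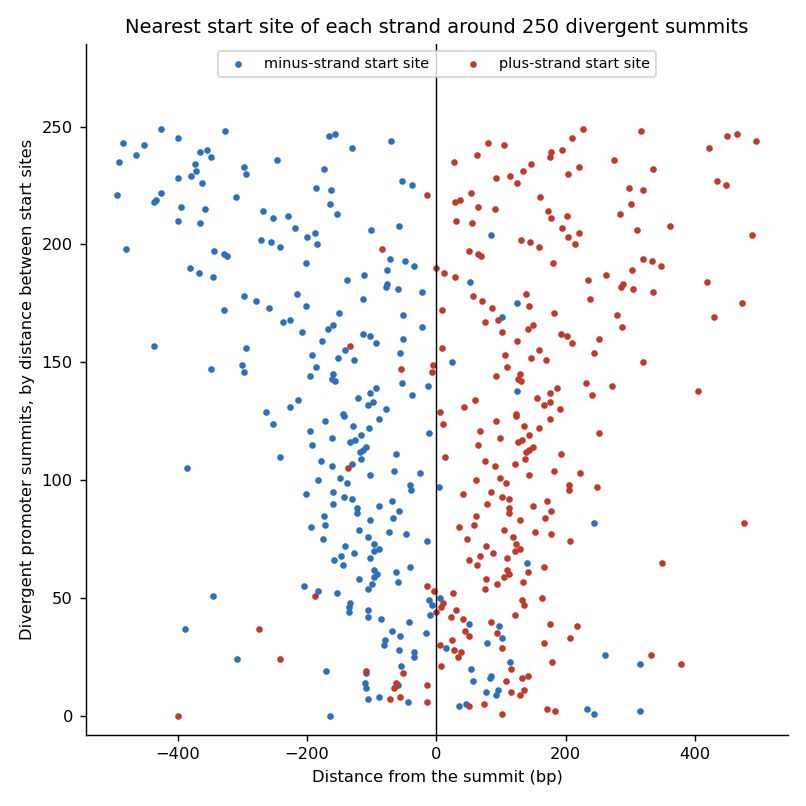
Each row is 1 of the 250 divergent summits, sorted by the signed distance between the nearest start sites of the 2 strands, with the summit at 0 on the horizontal axis (bp). Blue points are minus-strand and red points plus-strand start sites; in 198 rows blue lies left and red right of the summit or at it.

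Most divergent summits lay between their start sites. Of the 250, 198 (79.2%, 73.6 to 84.1) were between them, 48 (19.2%) beyond 1 of them and 4 (1.6%) at overlapping pairs. The median gap was 264 bp (253 to 284), 282.5 bp for summits between the start sites and 110 bp for those beyond 1, and 97 of the 250 gaps were of 200 to 300 bp. Such gaps are also common in the annotation, which has 243 facing pairs with a summit and 1623 without. Of these pairs, 225 had gaps of 201 to 250 bp and 287 had gaps of 251 to 300 bp. Summits between start sites had the nearer one at a median of 89 bp (75 to 97) and the farther at 194.5 bp (177 to 215). The middle 20% of the gap held 56 of the 198 (28.3%, 22.1 to 35.1), and the 20% at either end, together 40% of the gap, held 58 (29.3%, 23.1 to 36.2). The nearer start site was on the plus strand in 134 of the 250. With 1 start site per gene, the outermost, the share between the start sites was 68.4%.

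Both distances grew with the gap, to which they add up when the summit lies between the start sites. For gaps of up to 250 bp (66 summits between the start sites), 251 to 350 bp (63) and over 350 bp (69), the median distance to the nearer was 61.5, 98 and 114 bp, and to the farther 133.5, 186 and 335 bp. The median signal in the same order was 94.5, 113 and 95.3, with overlapping intervals. The summit was upstream of the nearer start site in 201 of the 250 divergent summits (80.4%) and in 442 of the 560 one-strand summits (78.9%), so the 2 groups hardly differed in this.

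The place of the summits was also read in each replicate. Taken at the replicate's own summit, 248 of 250 in replicate 1 and 244 of 246 in replicate 2 still had start sites on both strands, and 194 and 189 lay between them. Of the pooled summits between start sites, 186 of 198 were also between them in replicate 1 and 182 of 196 in replicate 2. Each replicate's summit came from a place overlapping the pooled peak, which both replicates made, so the 248 and 244 were nearly fixed in advance. The replicates' summits were a median of 15 bp apart (quartiles 6 to 36.8), and within 50 bp of each other in 206 of the 246. At the edge of the 500 bp distance, the 3 members just inside were beta4GalNAcTB and Cpsf100 (farther start site at 495 bp, signal 60.1), RpL31 and CG12929 (493 bp, 81.0), and Prosalpha3 and dgt3 (491 bp, 75.7). Just outside were app and CG32100 (501 bp, 72.3), ear and CG6276 (502 bp, 57.2), and CG14968 and ZnT63C (506 bp, 171).

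Divergent promoters carried summits more often than one-strand promoters did. Start sites of the annotation at most 500 bp apart were joined into 14843 promoters, of which 828 (5.58%) had a summit at no more than 500 bp. A summit was at 244 of 1901 promoters with start sites on both strands (12.8%, 11.4 to 14.4) and at 584 of 12942 one-strand promoters (4.51%, 4.16 to 4.88), and these intervals do not overlap. Divergent promoters are longer, and per Mb of promoter DNA the numbers were 97.2 and 44.9 summits. One-strand promoters whose start sites spread over 100 bp or more had a summit in 8.60% (6.96 to 10.5) and 67.6 per Mb. Those of at least 2 genes had one in 7.39% (4.36 to 11.6). By bases alone, DNA with start sites of both strands within 500 bp was 10.9% of all promoter bases, and held 149 summits per Mb against 41.0 where 1 strand had start sites and 9.13 elsewhere.

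Each replicate's own thresholded set showed the same order with fewer peaks. In the set of replicate 1, 9.05% of divergent promoters and 3.01% of one-strand promoters had a summit, and in that of replicate 2, 7.79% and 2.19%.

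The excess was not the same on all arms. On X, 18 of 286 divergent promoters had a summit (6.29%, 3.77 to 9.76), against 119 of 2231 one-strand promoters (5.33%, 4.44 to 6.35), and these intervals overlap. On 2L, 2R, 3L and 3R together it was 226 of 1607 (14.1%, 12.4 to 15.9) against 464 of 10608 (4.37%, 3.99 to 4.78), and each of the 4 arms had a share between 11.4% and 16.4% for divergent promoters. With the peaks of replicate 1's own set the X shares were 3.15% of divergent and 4.08% of one-strand promoters, and in replicate 2's 4.20% and 2.64%. On the 4 other arms they were 10.1% and 2.79% in replicate 1's set, and 8.46% and 2.11% in replicate 2's. Of the promoter summits on X, 21 of 132 were divergent (15.9%, 10.1 to 23.3), against 29.9% to 37.1% on the 4 large autosomal arms. The highest on X was at TH1, which encodes a subunit of the pausing factor NELF, and mei-41, a DNA damage kinase gene (98.4 in replicate 1, 81.7 in replicate 2, 177 pooled). The difference between arms was not tested. Chromosome 4 had 8 divergent promoters and none with a summit.

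Among divergent promoters the share with a summit varied with the distance between the facing start sites. It was 20% (15.0 to 25.8) for 201 to 250 bp and 17.4% (13.2 to 22.3) for 251 to 300 bp. For 151 to 200 bp it was 6 of 140, or 4.29% (1.59 to 9.09), and in the other classes of 50 bp it ranged from 10.3% to 13.9%. With replicate 1's own peaks the 3 classes from 151 to 300 bp had 4.29%, 14.7% and 12.2%, and in replicate 2's 2.86%, 12.9% and 11.8%. The median gap was 252 bp for the 243 facing pairs with a summit and 242 bp for the 1623 without, so the middle of the distribution barely differed.

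**Figure D2:**
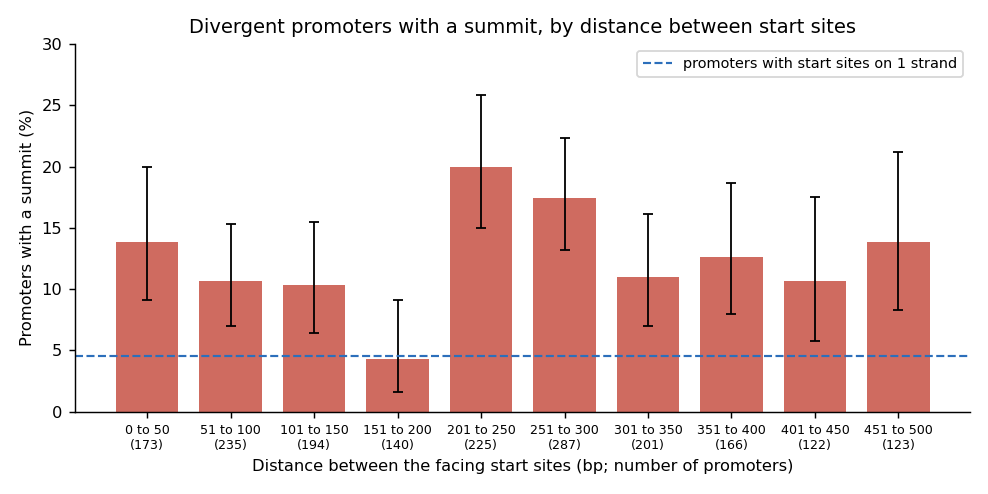
Bars show the percentage of annotated divergent promoters with a summit by the distance between the facing start sites (bp), with exact 95% intervals, the number of promoters in brackets, and the one-strand share (4.51%) as a dashed line. The classes of 201 to 300 bp stand highest, at 17.4% and 20%, and that of 151 to 200 bp lowest, at 4.29%.

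The signal at divergent summits had a median of 100.5 (89.1 to 107), with quartiles of 71.3 and 136 and a range of 43.9 to 696. One-strand summits had a median of 79.5 (77.2 to 83.2), one-strand summits 0 to 300 bp upstream of the start site 84.2 (79.6 to 91.6), and summits without a start site 74.1 (71.7 to 77.0). The ratio of the divergent to the one-strand median was 1.26 in the pooled data, 1.21 with the values of replicate 1 (53.5 against 44.2) and 1.23 with those of replicate 2 (47.4 against 38.5). It was 1.01 in the 946 optimal peaks of highest signal, and 1.03 and 1.01 in the own sets of replicates 1 and 2, all of them sets selected on signal or rank. The reason for the lower ratio in these sets was not tested. Of the divergent summits 14.4% were in the lowest 25% of all signals and 36% in the highest 25%, against 22.0% and 27.9% of one-strand summits. Divergent summits were 7 of the 20 highest peaks of the whole set and one-strand summits 9.

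**Figure D3:**
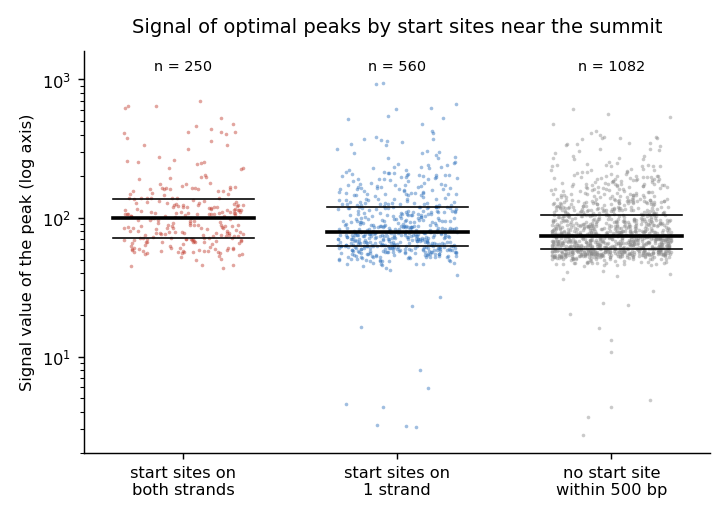
Each point is the authors' signal value of 1 optimal peak on a log axis, for summits with start sites on both strands, on 1 strand and on neither within 500 bp; thick bars are medians and thin bars quartiles. The medians are 100.5, 79.5 and 74.1, and no divergent summit is below 43.9.

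Divergent summits were found again in both replicates more often than the others. Of the 1892 summits' peaks, 680 (35.9%) overlapped a peak in both replicates' own sets. The share was 125 of 250 (50%, 43.6 to 56.4) for divergent summits and 201 of 560 (35.9%, 31.9 to 40.02) for one-strand summits. It was 41.3% (36.2 to 46.6) for one-strand summits 0 to 300 bp upstream of the start site, whose interval overlaps the divergent one. Neither own set held 21.2% of divergent and 30.7% of one-strand summits, and the conservative set held 89.6% and 81.4%. Divergent summits also had the higher median signal (100.5 against 79.5), and these shares were not matched for signal. Among the 164 divergent summits in the 946 peaks of highest signal, 75.6% were in both own sets.

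Across the 246 divergent summits with a value in both replicates, Pearson's r was 0.928 and Spearman's rho 0.679, as a description over peaks of the same 2 libraries. Replicate 2 had the higher value in 93 of the 246. The 5 largest differences among the 50 highest were all towards replicate 1. Phf5a, a splicing factor gene, and CG31638 had 111 in replicate 1 and 50.3 in replicate 2. CG13390 and CG17294 had 250.1 and 129, PolD2, a DNA polymerase delta subunit gene, and CG13933 had 107 and 55.5, SLIRP2 and Mkk4 had 214 and 123, and CG9147 and Fbw5 had 216 and 125.

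**Figure D4:**
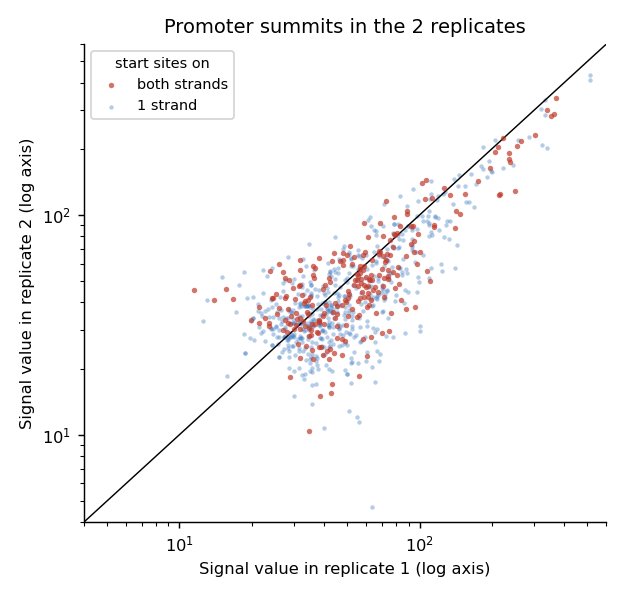
Signal values of replicate 1 (horizontal) and replicate 2 (vertical) at promoter summits, both on log axes, with divergent summits in red, one-strand summits in blue and the line of equal values in black. Of the 246 divergent summits with both values, 93 lie above the line, and the median log2 ratio of replicate 2 over replicate 1 is -0.194 (-0.260 to -0.0997).

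The genes at divergent summits were described with 11 lists of gene families picked by symbol. Of 13945 protein-coding genes on the 6 arms, 521 (3.74%) had a start site within 500 bp of a divergent summit. Since 3888 genes (27.9%) have a divergent promoter at all, the share among those, 12.7% (11.7 to 13.8), is the other value to set each list beside. One-strand summits had 537 of the genes (3.85%). No list was tested.

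Ribosomal protein genes stood out by position as well as by number. Of 92 cytoplasmic ribosomal protein genes, 21 (22.8%) were at divergent summits and 24 (26.1%) at one-strand summits, so the share was high at both kinds. Of the 36 in divergent promoters 20 (55.6%, 38.1 to 72.1) were at a divergent summit. RpS27, whose partner is the nuclear pore gene Nup37, had 106 in replicate 1, 145 in replicate 2 and 258 pooled, with the summit 12 bp from its start site (3R 25247483 to 25247554). RpL7, beside Ripalpha, had 103, 139 and 245 in the same order, with the summit 14 bp away. RpL14 and RpL34b followed with pooled signals of 165 each, RpL14 beside Nelf-E, a gene of the pausing factor NELF. RpL13 shared its summit with Dref itself (46.8 in replicate 1, 61.8 in replicate 2, 108 pooled), and RpL28 shared one with the translation initiation factor gene eIF1 (58.5, 92.2 and 152). The summit was a median of 27 bp from the ribosomal protein gene's start site, and within 50 bp in 14 of the 21, against a median of 134 bp and 67 of 521 over all genes at divergent summits. Replicate 2 had the higher value in 14 of the 20 with both values, against 93 of 246 over all divergent summits.

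Mitochondrial ribosomal protein genes differed from these. Divergent promoters held 53 of the 73 (72.6%), and 9 of the 53 (17.0%, 8.07 to 29.8) were at a divergent summit, with 1 of the 73 (1.37%) at a one-strand summit. The interval of 8.07 to 29.8 includes the 12.7% of all genes in divergent promoters. Besides mRpS23, mRpS10 and mRpL23 above, mRpS2, beside Mon1, had 72.2 in replicate 1, 116 in replicate 2 and 191 pooled. The lowest of the 9 was mRpS7, which shared its summit with the cell cycle kinase gene Cdk1 (42.6, 15.5 and 57.6). None of the 9 summits was within 50 bp of the mitochondrial ribosomal gene's start site, and the median was 143 bp. Replicate 2 was higher in 2 of the 9.

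Genes of transcription were present in smaller shares than cytoplasmic ribosomal protein genes. In the list of Mediator, general factors and RNA polymerase subunits, 10 of 80 genes (12.5%) were at divergent summits, which is 10 of the 50 in divergent promoters (20%, 10.03 to 33.7, an interval that includes the 12.7% of all genes), and 3 (3.75%) were at one-strand summits. MED30, a Mediator subunit gene, had 61.1 in replicate 1, 42.1 in replicate 2 and 109 pooled. Polr2B, which encodes the second-largest subunit of RNA polymerase II, had 59.8, 46.9 and 108, TfIIA-L 57.7, 44.4 and 96.9, and Polr2H 36.0, 53.3 and 94.2. Taf10 and Taf10b, duplicated genes for a TFIID subunit, face each other across a gap of 45 bp and shared 1 summit (23.5, 31.1 and 54.9). All 10 were at or below 109. The list was picked by symbol, and it leaves out the TFIIH gene Ssl1 above, whose summit had 480.5.

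In the list of chromatin architecture factors, 4 of 15 genes (26.7%) were at divergent summits, 4 of the 8 in divergent promoters, and 3 (20%) at one-strand summits. Besides Chro and Dref these were Cp190, a cofactor of insulator proteins (55.0 in replicate 1, 34.2 in replicate 2, 89.4 pooled), and M1BP (25.3, 43.7 and 70.4). The gene pzg, which encodes the factor Z4, was missed by its symbol and is not in these counts. It was also at a divergent summit, beside CG12974 (27.4, 42.0 and 70.6). PIG genes, which build the glycolipid anchor of membrane proteins, were at divergent summits in 5 of 21 cases (23.8%), all 5 among the 13 in divergent promoters (38.5%, 13.9 to 68.4), and none was at a one-strand summit: PIG-F (115.1, 88.5 and 198), PIG-M (73.8, 52.8 and 138), PIG-A (52.5, 37.4 and 87.8), PIG-Q (32.4, 43.3 and 78.1) and PIG-L (21.5, 37.9 and 65.7).

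Of 33 vacuolar ATPase genes 4 (12.1%) were at divergent summits and none at a one-strand summit, Vha100-2 highest (51.2, 71.9 and 124). These were 4 of the 13 in divergent promoters (30.8%, 9.09 to 61.4), an interval that includes the 12.7% of all genes. The shares in the remaining lists were near that of all genes or rested on few genes. Of 87 oxidative phosphorylation genes 4 were at divergent summits, ND-ASHI highest (92.1, 73.6 and 166). Translation factors had 2 of 52 (eIF1 and eIF3h), the proteasome 2 of 48 (Rpn3 and Prosalpha3) and the aminoacyl-tRNA synthetases picked by symbol 1 of 32 (IleRS, 83.9, 41.1 and 127). The synthetase gene GluProRS, beside AP-1sigma, was not counted in that list but was also at a divergent summit (67.8, 68.9 and 140). Genes that the symbols missed and that were not at a divergent summit were not counted for any list. None of 17 pan-neuronal genes was at a divergent summit (upper limit of the exact interval 19.5%), and 1 was at a one-strand summit. Divergent promoters hold 2 of these 17, so few could have been counted.

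The DNA at divergent summits was poor in G and C. The 101 bp windows had a median GC content of 32.7% (31.7 to 34.7), against 34.7% (33.7 to 36.6) at one-strand summits and 51.5% in the windows 500 bp to each side of the divergent summits. Members with a signal above the median had 31.7% (29.7 to 32.7) and the rest 35.6% (32.7 to 37.6). The midpoints of facing pairs were lower with a summit (28.7%, 27.7 to 30.7) than without (32.7%, 31.7 to 33.7). Windows 100 bp upstream of all start sites had 38.6%.

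**Figure D5:**
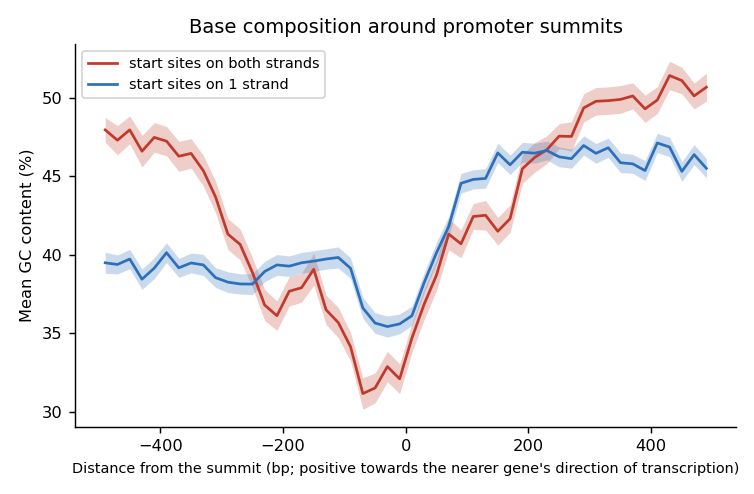
Mean GC content in bins of 20 bp by distance from the summit (bp), turned so that the nearer gene is transcribed to the right, for divergent (red) and one-strand summits (blue); shading is the standard error over summits. Around divergent summits the GC content is higher on both sides, 48.0% at the left edge and 50.7% at the right, while one-strand summits have 39.5% on the upstream edge.

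Runs of A or T and related letters were the sequences most often found. On either strand AAAAAA was in 32% (26.3 to 38.2) of windows at divergent summits, 23.4% (19.9 to 27.1) at one-strand summits and 7.6% of the flanks. It was in 29.2% of midpoints of facing pairs with a summit and in 25.8% of those without one. TATAAA, the TATA box core, was in 20.4% of windows at divergent summits and 18.9% at one-strand summits. The 6-mer that differed most from the flanks on 2L, 2R, X and 4, AAATAA, was in 39.7% (31.1 to 48.8) of the 126 windows on 3L and 3R, against 32.2% (26.1 to 38.7) of one-strand windows and 9.13% of the flanks there. Such letters are frequent wherever GC content is low, and the windows were not matched for it.

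Motifs known from divergent housekeeping promoters were compared at the midpoints of facing pairs, with and without a summit. CGATA was in 44 of 243 midpoints of facing pairs with a summit (18.1%, 13.5 to 23.5) and in 469 of 1623 without (28.9%, 26.7 to 31.2). The DRE, which contains CGATA, was in 3.29% (1.43 to 6.38) and 6.72% (5.55 to 8.04) of the same windows, and motif 7, searched as CANCNCTA, in 8.64% (5.43 to 12.9) and 7.33% (6.11 to 8.71). At the summits themselves CGATA was in 19.2% of divergent and 17.5% of one-strand windows, and the DRE in 4% and 1.96%. At divergent summits both were more frequent than in the flanks of the same summits, where CGATA was in 9.8% (7.34 to 12.7) and the DRE in 0.2% (0.00506 to 1.11). The flanks, 500 bp to each side, had a median GC content of 51.5% against 32.7% at the summits, and the windows were not matched for it. In windows 100 bp upstream of all start sites, CGATA was in 19.5% and the DRE in 2.27%. Both values lie inside the intervals at divergent summits (14.5 to 24.6 for CGATA, 1.93 to 7.23 for the DRE). Motif 1, searched as GGTCACAC, was in 2.4% of divergent and 1.61% of one-strand windows and 0.4% of the flanks, and motif 7 in 8%, 4.82% and 2.8%. The intervals of divergent and one-strand windows overlap for all 4. GAGAG, the core bound by GAGA factor, was in 5.6% (3.10 to 9.22) of divergent windows, 8.39% of one-strand windows, 12.6% of windows without a start site and 15.9% of windows 100 bp upstream of all start sites. Some shares at divergent summits differed between the replicates' own sets, with overlapping intervals. In the sets of replicates 1 and 2, the DRE was in 1.68% and 4.52% of divergent windows, motif 1 in 0.559% and 2.58%, and GAGAG in 3.35% and 7.10%. Motif 7 was below its 8% in both, at 5.59% and 4.52%. The motif CAGGTAG, bound by the early embryonic factor Zelda, was in 0 of the 250 (upper limit of the exact interval 1.46%). These are matches of letters in a window, not sites shown to be bound.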

How the data were processed

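The authors deposited peak lists on dm6, per the labels, made from an alignment per replicate and 1 shared control, per the deposited documentation. The sources used here name no aligner or peak caller. The signal of a peak is the authors' value, the deposited score is a scaled IDR, and another deposited column gives the summit offset. In the 2 ranked lists of the whole series, 16 columns of per-replicate values name no replicate and were left out. Each replicate's value is that of the highest overlapping place in its own ranked list. Start sites came from Ensembl release 115, sequence from the RefSeq Release 6 assembly. Shares have exact (Clopper-Pearson) and medians order-statistic 95% intervals, which cover counting error only, and no test was run, since there was 1 group. The classification was tested on simulated data. Named genes were those of the 20 highest members, the highest of each layout, up to 4 per list, the 5 largest replicate differences and the edges of the rule. Of the 20, 1 pair is not reported here. PIG-L, RpL13, RpL28, mRpS7, Taf10, Taf10b, TH1 and the lower overlapping pairs were added after their values were seen. The genes pzg and GluProRS, missed by their symbols, were named because they were at a divergent summit. Members, lists and motifs were chosen with earlier results of these data known. Python 3.11.15, NumPy 2.4.6, pandas 2.3.3, SciPy 1.17.1 and Matplotlib 3.10.9 were used.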

Additional observations from a re-analysis of the deposited data

Results flagged for a closer look

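Outside the thresholded set, 4 places of the pooled ranked list had start sites on both strands within 500 bp and a score at or above the lowest score of the optimal set, 830, but were absent from that set. They are flagged as a signal in a deposited list that the comparisons do not use. They were among 61 such places of any location. The pairs were eIF4EHP and CG18428 (3R 24109022 to 24109285, signal 175.9, gap 376 bp), Dph4 and RpL13A (3R 5624300 to 5624563, signal 125.2, gap 349 bp), Sirt6 and pont (3R 10261859 to 10262122, signal 92.0, gap 274 bp), and Pgk and Bacc (2L 2753210 to 2753473, signal 54.8, gap 165 bp). The summit lay between the start sites in the first 3 and beyond 1 of them at Pgk and Bacc. RpL13A adds a ribosomal protein gene and eIF4EHP a translation repressor gene to the families described. Why they are absent from the set was not tested.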

How the results depend on the processing

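Of 191 values under other settings, 132 stayed within a limit, 59 moved by more, and 0 changed direction. The limit was the interval of a share or median, 1.5 times for a count, and the replicates' SD of 0.0150 for the signal ratio. Counts, shares and median distances have no direction to change, so the 0 says little about them. The signal ratio could have fallen below 1, and its lowest value was 1.01. In the conservative set 3.97% of one-strand promoters had a summit and the signal ratio of divergent to one-strand summits was 1.17. In the 946 peaks of highest signal there were 164 divergent summits, 36.1% of promoter summits. There, 8.31% of divergent and 2.45% of one-strand promoters had a summit, the signal ratio was 1.01 and 75.6% of divergent summits were in both own sets. With 1 start site per gene, 36.2% of promoter summits were divergent, 4.13% of one-strand promoters had a summit, the signal ratio was 1.22, the median gap 251 bp, and 68.4% lay between the start sites.

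With a distance of 250 bp there were 158 divergent summits, 25.2% of promoter summits. Then 11.0% of divergent and 3.79% of one-strand promoters had a summit, the signal ratio was 1.29, 57.6% were in both own sets, the median gap was 236 bp and 38 listed genes were at divergent summits, against 62 at 500 bp. With 1000 bp, 15.1% of divergent and 5.84% of one-strand promoters had a summit, the signal ratio was 1.12 and the median gap 298.5 bp. Windows of 25 bp to each side held CGATA in 10.8% and AAAAAA in 18.0%, and of 100 bp in 36.0% and 49.2%.

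With 1 replicate's own set in place of the optimal set, the number of divergent summits was 155 to 179, their share of promoter summits 33.2% to 37.7%, divergent promoters with a summit 7.79% to 9.05%, one-strand promoters with a summit 2.19% to 3.01%, the signal ratio 1.01 to 1.03, windows with CGATA 13.4% to 17.4%, windows with AAAAAA 29.6% to 29.7%, the median gap 260 to 266 bp, summits between the start sites 80.6% to 82.1% and listed genes 42 to 44. No paired analysis was possible because there was 1 group. The depth is unknown, so a promoter without a summit is not shown to be unbound. Start sites are those of the annotation, not measured in these embryos.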
